A study of Xenopus tropicalis with 4 samples.

Results

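The 6 genes zp2, zp3.2, zp4, zpax, zpd and zpy1 encode glycoproteins of the zona pellucida family, which build the coat around the vertebrate egg. They were taken by symbol from a table of polyadenylation sites in Xenopus tropicalis, a diploid clawed frog, and they are 6 of 15410 genes and 18 of 66426 sites in that table. The sites were read by WTTS-seq (whole transcriptome termini site sequencing), which reads transcripts from their 3' ends. A read there reports 1 transcript end, and reads of different genes can be set side by side without dividing by length. Whether ends differ in priming or amplification was not tested. RNA came from whole-body homogenates of individual adults, 2 females and 2 males, with 1 library for each frog. The labels give no strain, age or treatment for either sex. The study compared the sexes in their use of alternative polyadenylation sites.

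In frogs the egg coat is also called the vitelline envelope. Its proteins are made by the growing oocyte and secreted, and each carries a zona pellucida domain through which the proteins join into filaments. Before assembly a furin-type protease cuts away the tail that anchors the precursor in the membrane. Sperm bind to this coat, and enzymes released by the egg change it after fertilisation. ZP2 (also named ZPA in frogs), ZP3 (ZPC) and ZP4 (ZPB) families are shared with mammals, while ZPAX, ZPD and ZPY genes are further branches of the family found in frogs and other vertebrates.

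Female 1 was sequenced to 2380500 reads and female 2 to 1778737, male 1 to 2779715 and male 2 to 1531471. All levels below are reads per 1000000 reads of the effective library (CPM, scaled by TMM, which equalises libraries on genes taken as unchanged). In whole-body RNA, a larger number of oocytes and more RNA per oocyte cannot be told apart. The tissue markers matched the whole-body label, since all 10 skeletal muscle genes listed had reads in every library. These muscle genes summed to 9747 and 4944 CPM in females 1 and 2 and to 134310 and 76965 CPM in males 1 and 2, and 11 liver genes to 2417 and 886 CPM in the females and 14778 and 10403 CPM in the males. The part of this difference in the results below was not tested. An alternative scaling used below sets the median fold of these muscle and liver genes to 1, which moves every gene towards females: 76.8% of tested genes were then called higher in females, so a call in that direction on it says little about a gene. The p-values set the difference between the sexes against the spread within each sex in these 4 libraries. For each gene the test (edgeR) moderates this spread with that of the other tested genes, so it is not the gene's own spread alone. Nothing in the labels says how the frogs were raised, so a difference in rearing cannot be told apart from sex.

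Egg coat transcripts were abundant in both females and nearly absent from both males. Together the 6 genes had 4196 reads in female 1 and 2728 in female 2, against 2 in male 1 and 2 in male 2. That was 1763 reads per 1000000 library reads (95% Clopper-Pearson interval 1710 to 1817) and 1534 (1477 to 1592) in the females. In males it was 0.719 (0.0871 to 2.60) and 1.31 (0.158 to 4.72). These intervals, and the floors below, cover the counting error of reads only. No molecular identifiers are mentioned in the labels, so copies made by PCR may be counted as separate reads, and the intervals may be too narrow for transcripts.

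All 6 genes were higher in females by edgeR's quasi-likelihood test, with Benjamini-Hochberg adjusted p from 0.00561 (zpd and zp3.2) to 0.00755 (zpax). Of the 10188 genes tested, 19.6% were called higher in females. The fitted log2 fold change, male over female, had a median of -10.32 over the 6 genes and -0.35 over all tested genes. With the 4 genes that had 0 male reads placed at their bound, the median of the 6 was -6.79. In both males 4 of the 6 had 0 reads, as had 4.41% of tested genes, and all 6 had at most 2 male reads, as had 8.04%. At such counts a gene could pass the read filter only through the females. The direction of the 6 was thereby fixed, and the 19.6% is no test of it. With 2 libraries against 2 an exact permutation test of a single gene cannot give a two-sided p below 0.333.

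**Figure D1:**
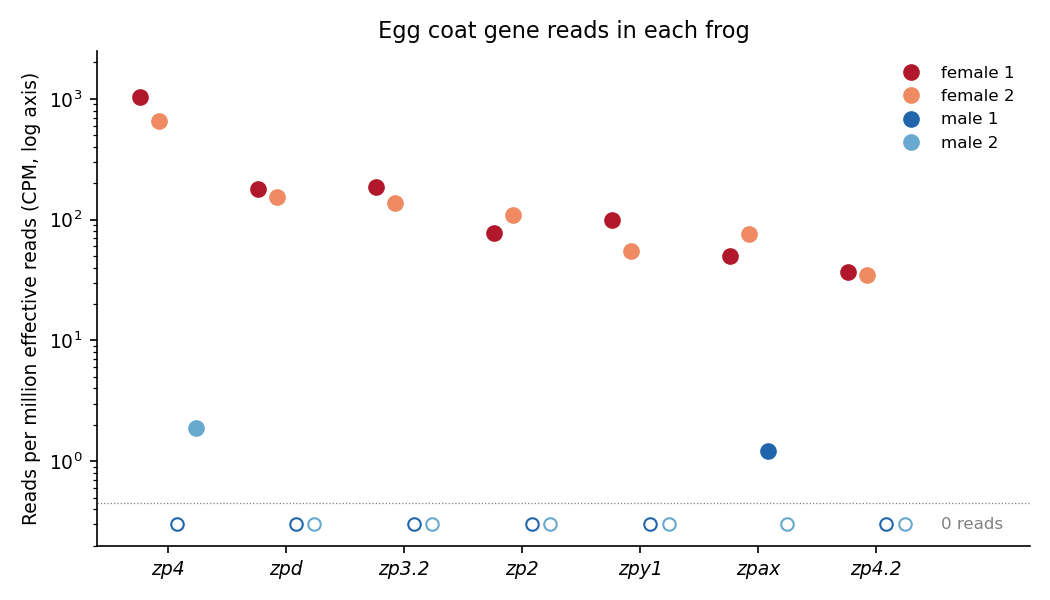
Level (CPM, log axis) of the 6 egg coat genes and of zp4.2 in each of the 4 frogs, with libraries without a read drawn as open circles under the dotted line. Both females lie between 34.5 and 1043 CPM for every gene shown, and the male points above 0 reads are zp4 in male 2 and zpax in male 1.

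The gene zp4, whose product is one of the main filament proteins of the frog coat, was the most abundant of the 6. It had 2675 reads in female 1, 1507 in female 2, 0 in male 1 and 2 in male 2. These correspond to 1043 and 658 CPM in the females, or 851 ± 272 (SD, n = 2), and to 0 and 1.90 CPM in the males. Female 1 was the higher female, and both females lay far above both males, as they did for the other 5 genes (42.6% of tested genes had both females above both males). By female mean zp4 ranked 114 of 10188 tested genes. The female-to-male ratio was 1160, with a counting interval of 321 to 9584 over the 2 male reads (edgeR, adjusted p = 0.00577). That ratio rested on male 2: without male 1 it was 454 (126 to 3751), and without male 2 zp4 was at least 465-fold higher in females.

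Both zpd and zp3.2 came next and could not be ordered. The zpd gene, of the ZPD branch, had 463 and 355 reads in females 1 and 2 and 0 in each male, or 168 ± 18.0 CPM in females (SD, n = 2). The ZP3 family gene zp3.2 had 478 and 314 reads in the females and 0 in each male, or 162 ± 34.8 CPM. Female ranges were 155 to 181 CPM for zpd and 137 to 186 CPM for zp3.2, so the ranges overlapped. A library without a read allows up to 3 reads, which is 1.83 CPM in male 1, 2.85 in male 2 and 1.11 over both. Against that joint floor zpd was at least 151-fold and zp3.2 at least 145-fold higher in females (edgeR, adjusted p = 0.00561 for each).

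The remaining genes, zp2, zpy1 and zpax, had lower female levels than zp4, zpd and zp3.2 but still lay above most tested genes. The ZP2 family protein is cut by an egg protease after fertilisation, a change that goes with the loss of sperm binding. Its gene zp2 had 197 and 252 reads in females 1 and 2 and 0 in each male, or 76.8 and 110 CPM in the females (93.4 ± 23.5, SD, n = 2). It was at least 83.9-fold higher in females (edgeR, adjusted p = 0.00593). Female 2 was the higher female here, unlike for zp4.

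The ZPY branch gene zpy1 had 254 and 126 reads in females 1 and 2 and 0 in each male. Levels of 99.0 and 55.0 CPM, or 77.0 ± 31.1 (SD, n = 2), made it at least 69.2-fold higher in females (edgeR, adjusted p = 0.00651). Its female range overlapped that of zp2.

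In zpax, the gene of the ZPAX branch, there were 129 and 174 reads in females 1 and 2, 2 in male 1 and 0 in male 2. Levels of 50.3 and 76.0 CPM in the females, or 63.2 ± 18.2 (SD, n = 2), gave a ratio of 84.1 (counting interval 23.1 to 697; edgeR, adjusted p = 0.00755). Without male 1, which held both reads, zpax was at least 22.2-fold higher in females, and without male 2 the ratio was 51.2 (14.0 to 424). For zpd, zp3.2, zp2 and zpy1 the bound was 27.1 to 91.7 against the floor of 1 male alone. The female ranges of zpax and zpy1 overlapped, while zp2 (lowest 76.8 CPM) lay just above zpax (highest 76.0 CPM). Among tested genes the female mean of zpax was higher than 75.9% of the rest and that of zp2 higher than 83.8%.

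**Figure D2:**
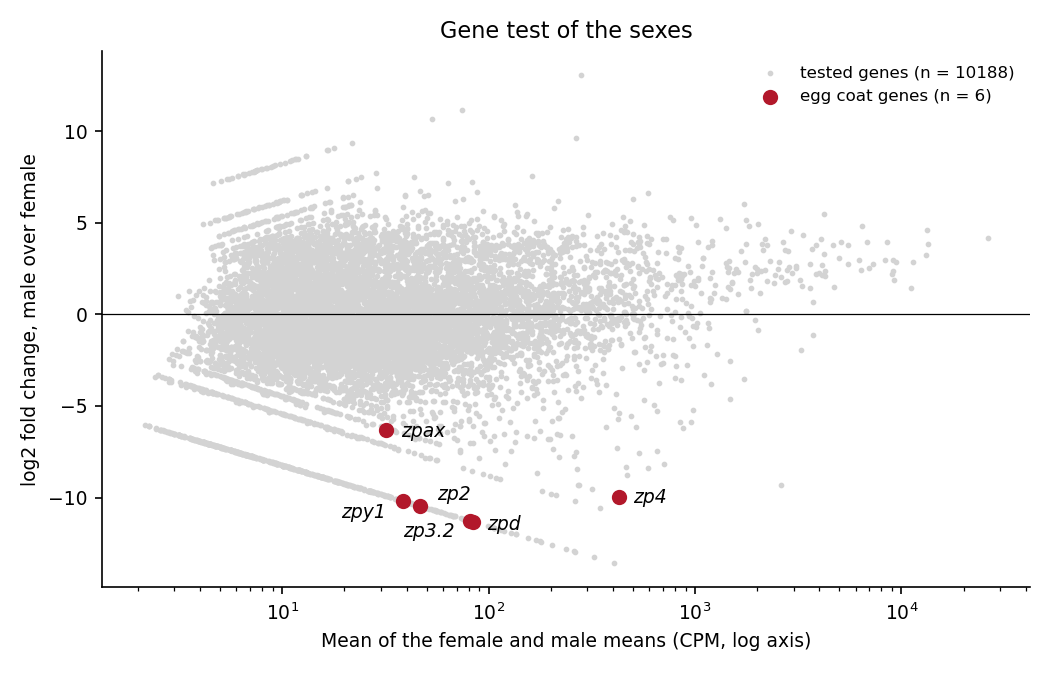
Fitted log2 fold change (male over female) against the mean of the female and male means (CPM, log axis) for 10188 tested genes, with the 6 egg coat genes in red. All 6 lie at or below -6.34, and the lowest diagonal band is made of genes with 0 reads in both males, whose fitted fold depends on the prior count.

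The make-up of the egg coat reads differed between the females. In female 1, zp4 gave 63.8% of the 4196 egg coat reads (95% Clopper-Pearson interval 62.3 to 65.2%), and in female 2 it gave 55.2% of 2728 (53.4 to 57.1%). The zp2 share was 4.69% (4.07 to 5.38%) in female 1 and 9.24% (8.18 to 10.4%) in female 2. The zpax share likewise was 3.07% (2.57 to 3.64%) and 6.38% (5.49 to 7.36%). For these 3 genes the counting intervals of the females did not overlap. Such intervals leave out the spread between frogs, and how often they part over all genes was not counted. With only the most used site of each gene counted, zp4 and zpax still did not overlap, but zp2 gave 2.98% (2.47 to 3.56%) and 3.85% (3.12 to 4.69%), which do.

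For zpd, zp3.2 and zpy1 the intervals overlapped. In females 1 and 2 zp3.2 gave 11.4% (10.4 to 12.4%) and 11.5% (10.3 to 12.8%) of egg coat reads. The values were 11.03% (10.1 to 12.0%) and 13.0% (11.8 to 14.3%) for zpd and 6.05% (5.35 to 6.82%) and 4.62% (3.86 to 5.47%) for zpy1. With only the most used site counted, zpd gave 8.10% (7.27 to 8.99%) and 10.6% (9.42 to 11.9%), which do not overlap. Over all sites there were 13.6 zp4 reads for each zp2 read in female 1 and 5.98 in female 2, whereas zp2 to zpax stood at 1.53 and 1.45. In CPM, female 2 over female 1 was 1.43 for zp2 and 1.51 for zpax, and 0.556 to 0.859 for the other 4, against a median of 1.12 over all genes called higher in females. The TMM factors were 1.18 in female 1 and 1.58 in female 2. With library size alone each of these ratios, and the median, would be higher. These are 2 frogs, so the differences describe them and were not tested.

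**Figure D3:**
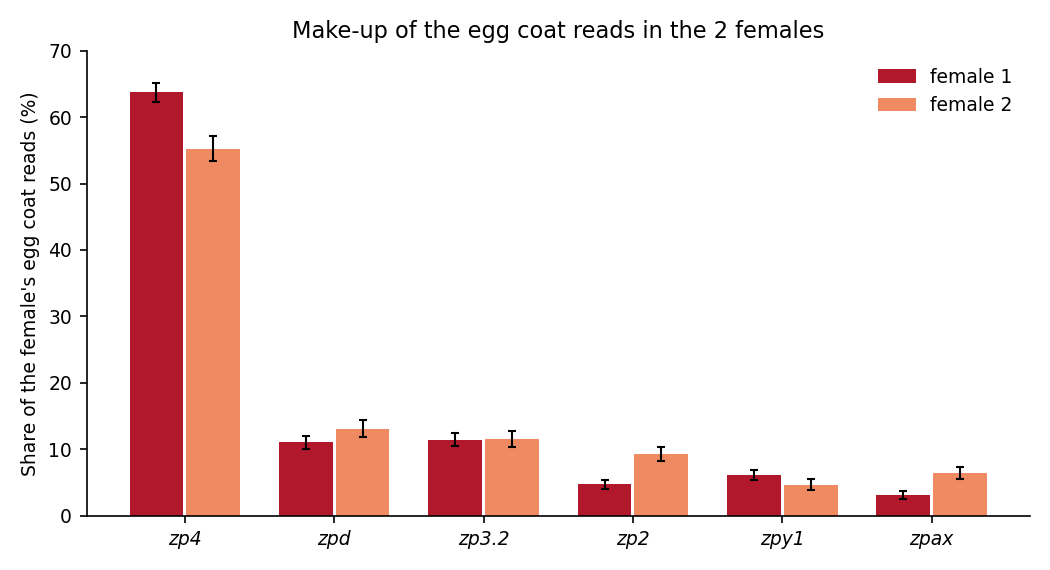
Share of each female's egg coat reads (%) that came from each gene, with bars for females 1 and 2 and 95% Clopper-Pearson intervals. The zp4 bar is higher in female 1 (63.8 against 55.2%), and the zp2 and zpax bars are higher in female 2.

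The ends of these transcripts fell into a few sites near the annotated end of each gene. On the strand of their gene the 6 genes had 17 sites, 1 to 4 for each gene, and none of them lay in an intron. Of the 2799 genes with at least 100 reads in each female, 44.98% had an intronic site. Those genes had a median of 5 sites, so the 2 sets are not alike in number of sites. Intronic sites held 1.66% of female reads over those 2799 genes. Positions are given as the deposited table has them. The build is not given in the sources used here, and chromosome numbers come from where the genes' symbols lie in a RefSeq gene table.

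In zp4 (chromosome 3, plus strand) a single site at 5455887, overlapping an exon, held 2675 of 2675 reads in female 1 and 1502 of 1507 in female 2. Both male reads of zp4 were at that site. A site 262 bases upstream, inside an exon, had 5 reads in female 2. In zp3.2 (chromosome 1, plus strand) the site at 131842853, overlapping an exon, held 98.1% and 97.1% of reads in females 1 and 2, and one 174 bases downstream had 9 reads in each. In zpy1 a single site was listed, at 159202 on the plus strand of an unplaced scaffold, although the RefSeq table places the gene on chromosome 3. It overlapped an exon and held all 254 and 126 female reads. These 3 genes thus ended almost wholly at 1 site.

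The zpax gene (chromosome 5, minus strand) had 4 sites, of which the one at 137778838, overlapping an exon, held 126 of 129 reads in female 1 and 155 of 174 in female 2. Its share was 97.7% (93.4 to 99.5%) and 89.1% (83.5 to 93.3%), so the counting intervals did not overlap. How often such intervals part over all genes was not counted. Both male reads of zpax were at this site as well. In female 2 the other sites were 185 and 68 bases upstream, inside an exon, with 9 and 5 reads, and 897 bases downstream with 5.

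Transcripts of zpd (chromosome 4, plus strand) ended mainly at 2 sites 169 bases apart. The more used site, at 28077440 and downstream of the annotated gene, held 69.3% (64.9 to 73.5%) of reads in female 1 and 73.0% (68.0 to 77.5%) in female 2. The upstream one, at 28077271 and inside an exon, held 29.8% (25.7 to 34.2%) and 26.5% (22.0 to 31.4%). The females did not differ beyond counting error at either site. Sites 120 bases upstream and 352 bases downstream of the main one had 3 reads each over both females.

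In zp2 (chromosome 9, minus strand) reads were spread over 3 sites, in shares that differed between these 2 frogs. The most upstream site, at 18839951 and overlapping an exon, had 118 and 94 reads in females 1 and 2, or 59.9% (52.7 to 66.8%) and 37.3% (31.3 to 43.6%). The site 299 bases further on, at 18839652, had 57 and 90 reads, or 28.9% (22.7 to 35.8%) and 35.7% (29.8 to 42.0%). The third, at 18839508 and 443 bases from the first, had 21 and 67 reads, or 10.7% (6.72 to 15.8%) and 26.6% (21.2 to 32.5%). Intervals of the first and the third site did not overlap between the females, and female 2 had more of its zp2 reads at the later end. How often such intervals part over all genes was not counted. Of the 2587 genes with at least 2 sites and 100 reads in each female, 44.4% differed by over 10 points at their most used site. Shares within 1 gene depend on each other, so these sites are not separate evidence. A site 1179 bases from the first had 1 read in each female.

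**Figure D4:**
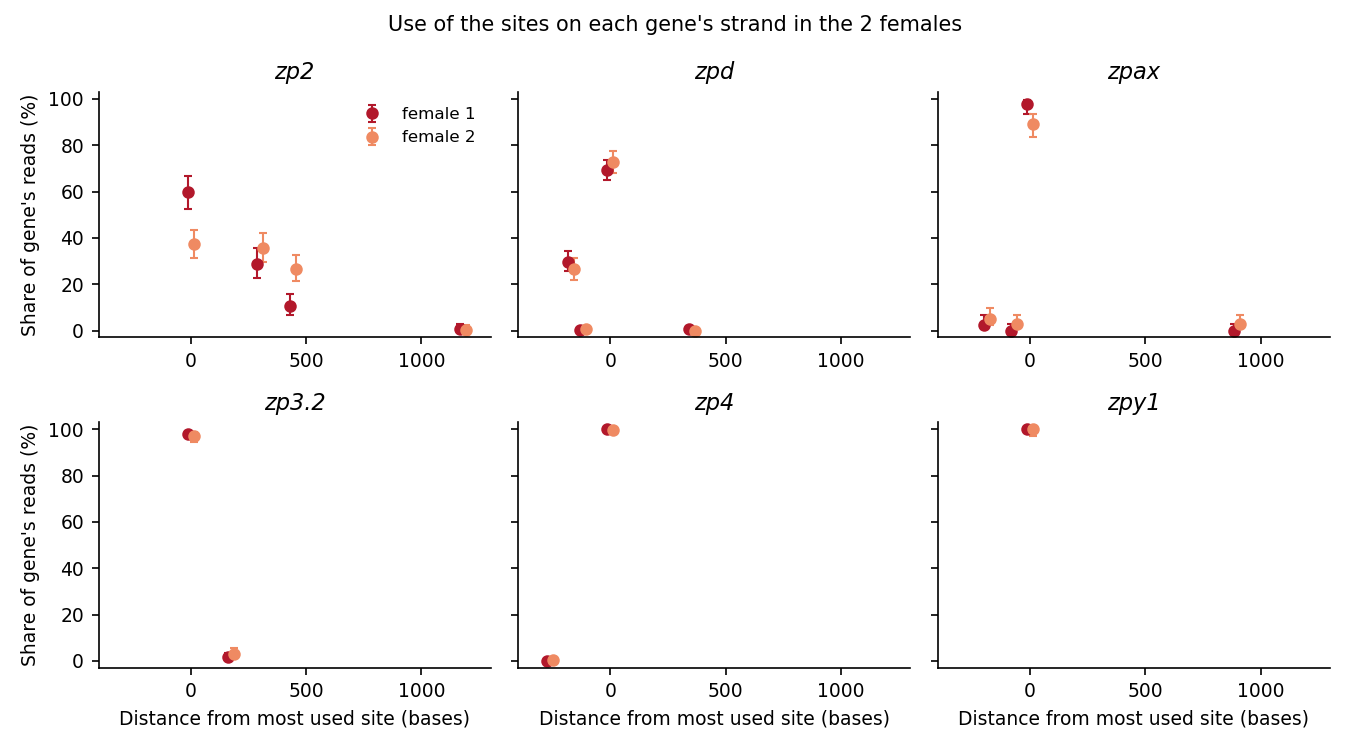
Share of each gene's reads (%) at each site on its strand in females 1 and 2, against the distance from the most used site along the transcript (bases), with 95% Clopper-Pearson intervals and a small sideways shift between the females. The first zp2 site holds 59.9% in female 1 and 37.3% in female 2, while zp3.2, zp4 and zpy1 have over 97% at 1 site in each female.

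A lower share at the most used site in female 2 was common beyond the egg coat. Over the 2587 genes with at least 2 sites and 100 reads in each female, that share was lower in female 2 in 71.2%, and the median difference, female 2 minus female 1, was -4.47 points. The most used site was picked from the summed reads of both females, and the library of female 1 was the deeper one. Such a pick can lean to the site that female 1 favours. Whether it has a part in the shift was not tested. In zp2 and zpax the picked site had the most reads in each female alone. The difference in zp2 was -22.6 points, larger in size than in 84.2% of these genes, and that in zpax was -8.59 points, larger than in 51.3%. For zp4, zp3.2 and zpd it was -0.33, -0.98 and 3.63 points, which left 5.84%, 13.3% and 31.0% of genes with a smaller one. Whether this shift between the females has a part in the zp2 and zpax values was not tested. Site use could not be compared between the sexes, because males had 4 reads in all.

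**Figure D5:**
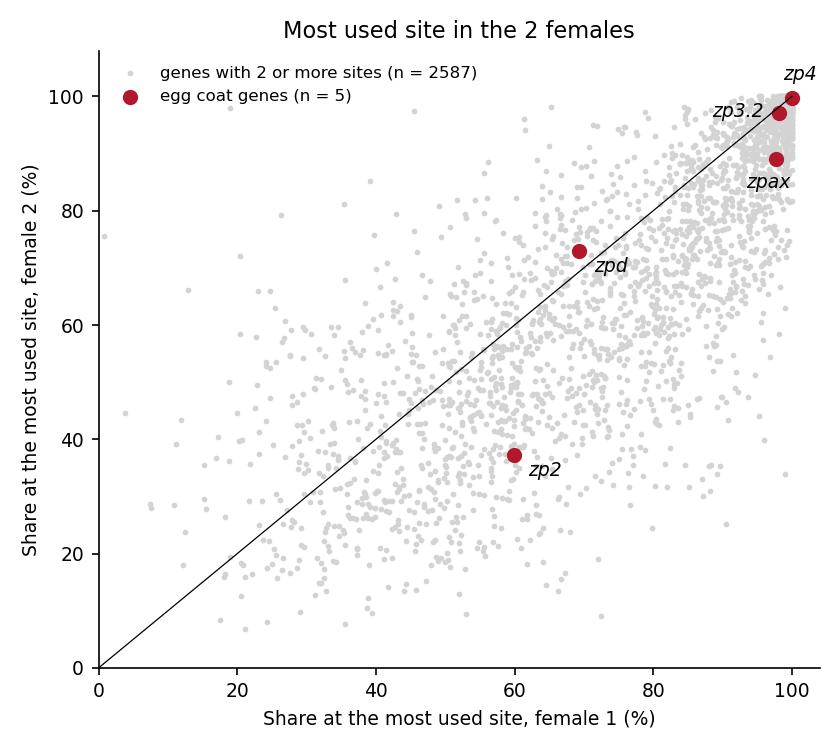
Share of reads (%) at the most used site in female 2 (vertical axis) against female 1 (horizontal axis) for 2587 genes with at least 2 sites, with the 5 egg coat genes of that kind in red and the line of equal shares. Most grey points lie below the line, as do zp2 (59.9% in female 1, 37.3% in female 2) and zpax, and zpd lies just above it.

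Single sites differed between the sexes as the genes did. Of the 17 sites, 9 had enough reads for the site test. All 9 were higher in females (edgeR, adjusted p of 0.0197 for 8 of them and 0.0222 for the third zp2 site), where 19.9% of 17215 tested sites were. With 4 male reads over all 17 sites, a site could pass the read filter only through the females. The direction of the 9 was thereby fixed, and the 19.9% is no test of it. The 8 others together had 53 of the 6924 female reads. Without female 2, the third zp2 site was not past the test (adjusted p = 0.228). The authors' deposited table gives an FDR-adjusted p under 0.05 for the same 9 sites, where it does so in favour of females for 4.46% of 66426 sites. The signed fold change in the authors' deposited table is 1429 at the main zp4 site and 114 at the main zpax site, with FDR-adjusted p of 3.65e-08 and 0.000168. Both tests start from the same counts, so this is no independent check.

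Of other genes that carry the zona pellucida domain, 23 were listed. Of these, 7 were in the table under the listed symbol and 4 were tested, with 1 higher in females and 2 higher in males, where 19.6% and 17.1% of all tested genes were (median log2 2.67, against -0.35 over all tested genes). The gene higher in females was zp4.2, an egg coat gene beside the 6. It had 94 and 79 reads in females 1 and 2 and 0 in each male, or 35.6 ± 1.51 CPM, and was at least 31.9-fold higher (edgeR, adjusted p = 0.0083). Without male reads zp4.2 could pass the read filter only through the females. Its direction was thereby fixed, and the 19.6% is no test of it. Reads shared between zp4 and zp4.2, or other near copies, cannot be assigned with certainty. The TGF-beta co-receptor gene tgfbr3 had 8.98 ± 2.19 CPM in females and 55.8 ± 3.85 CPM in males (log2 2.63, adjusted p = 0.0191), and the pancreatic gene cuzd1 3.31 ± 0.27 and 22.2 ± 14.2 CPM (log2 2.71, adjusted p = 0.0472). With library size alone neither passed (adjusted p = 0.0805 and 0.153), and scaled to the muscle and liver genes both turned to -1.16 and -1.05. With 8 reads in each female, cuzd1 could not pass the read filter through the females alone. Its direction thus had little room to reverse, and the 17.1% is no test of it. Of the rest, oit3 had a log2 fold of 3.37 (adjusted p = 0.0688; -0.38 on the muscle and liver scaling), and tectb (0 female and 30 male reads), eng and dmbt1 were below the read filter.

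Of 18 genes listed for coat processing, cortical granules and the egg surface, 4 were in the table. Ovochymase, a protease found in frog eggs, is encoded by ovch1, which had 654 reads in female 1, 337 in female 2, 0 in male 1 and 4 in male 2. Its log2 fold was -6.90 (edgeR, adjusted p = 0.00784), in a direction fixed by the read filter, which it could pass only through the females. The furin gene, whose product cuts zona pellucida precursors among many others, had 118 ± 24.9 CPM in females and 246 ± 88.6 CPM in males and did not pass (log2 1.05, adjusted p = 0.168). The gene of the egg surface protein CD9 did not pass either (log2 0.51, adjusted p = 0.539). With muscle and liver scaling both went the other way and passed (furin -2.74, adjusted p = 0.0026; cd9 -3.28, adjusted p = 0.0027). The transglutaminase gene tgm2 was higher in males (log2 3.43, adjusted p = 0.0105), and that scaling turned it to -0.36. The median of the 4 was 0.78.

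Oocyte regulators were higher in females, as the egg coat genes were. Of 13 listed, 8 were in the table and 6 were tested, all higher in females (19.6% of tested genes were), with a median log2 fold of -8.71, or -6.05 with bounds. With at most 2 male reads each, figla, zar1l, zar1, npm2 and bmp15 could pass the read filter only through the females. Their direction was thereby fixed, and the 19.6% is no test of the list. Nor could taf4b, with 9 and 12 male reads, pass the filter through the males alone. In mice the transcription factor FIGLA switches on the zona pellucida genes. Its frog gene figla had 153 and 148 reads in females 1 and 2, 0 in male 1 and 2 in male 2, a ratio of 83.5 (counting interval 22.9 to 693; adjusted p = 0.00891). The maternal genes zar1l and zar1 had 852 ± 49.2 and 67.03 ± 8.30 CPM in females, with 2 and 0 male reads. The nucleoplasmin gene npm2 was at least 99.4-fold and the growth factor gene bmp15 at least 10.4-fold higher, and taf4b had a log2 fold of -2.97 (edgeR, adjusted p from 0.0057 to 0.0193 for these 6 genes). With 21 and 16 female reads and 0 male reads, gdf9 and tbpl2 had too few for the test.

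Ovarian follicle cells surround the oocyte. Of 15 listed markers of them 9 were in the table, and they summed to 17.2 and 21.4 CPM in females 1 and 2 and 143 and 131 CPM in males 1 and 2. Males have no ovarian follicles, so their reads of these genes come from other cells. The list therefore does not compare follicle cells between the sexes, and the source of the male reads was not tested. Of the 5 tested, gata4, lhcgr and fshr were higher in males and 2 did not pass (median log2 3.05), where 17.1% of all tested genes were higher in males. With at most 3 reads in each female, lhcgr and fshr could pass the read filter only through the males. Their direction was thereby fixed, and the 17.1% is no test of the list. Nor could gata4, with 3 and 10 female reads, pass the filter through the females alone. By the mean over both sexes the most abundant were gata4 (log2 4.38, adjusted p = 0.0104), inhba (2.23, adjusted p = 0.0651) and lhcgr, the last with 2 female and 52 male reads. In females alone the highest was cyp17a1, a steroid synthesis gene below the read filter, with 5.44 CPM in females and 3.22 in males. On the muscle and liver scaling gata4, lhcgr and fshr did not pass (log2 0.61, 1.65 and -0.67). Oviduct epithelium markers had 1 tested gene of 4 in the table, agr3 (log2 3.79, adjusted p = 0.0266; 0.05 on the muscle and liver scaling). With 3 and 5 female reads, agr3 could pass the read filter only through the males. Its direction was thereby fixed, and the 17.1% is no test of it. The oviduct marker emx2 had 39 and 8 reads in females 1 and 2 and 0 in the males, and pax8 and foxj1 had at most 18 reads in any library.

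Among testis and spermatid genes 7 of 12 listed were in the table and 3 were tested. Of these odf3 (log2 5.39, adjusted p = 0.00865) and tekt1 (5.34, adjusted p = 0.0172) were higher in males and odf2 (-3.86, adjusted p = 0.0266) in females. Each had at most 3 reads in any library of the other sex and could pass the read filter only through 1 sex. Their direction was thereby fixed. The 17.1% and 19.6% of all tested genes called higher in males and in females are no test of them. On the muscle and liver scaling odf3 and tekt1 did not pass (1.69 and 1.88). All 10 muscle genes and 8 of 11 liver genes were higher in males (median log2 4.003 and 2.87; 17.1% of all tested genes were), and the most abundant were ckm, myl1 and acta1 in muscle and ambp, fga and apoa1 in liver, of which apoa1 did not pass (log2 1.86, adjusted p = 0.168). That scaling sets the median of these 2 lists to 0, and on it mybpc2 alone of the 21 passed as higher in males, while fga (log2 -1.89, adjusted p = 0.0183) and fgg (-2.62, adjusted p = 0.0053) passed as higher in females. Listed sperm-side genes of egg binding were not found under their symbols and are not analysed here.

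For each egg coat gene the nearest genes by level were taken, by the Euclidean distance of log2(CPM + 1) over the 4 libraries, a measure that by itself picks genes high in both females and near 0 in both males. The nearest named genes were zar1l (0.39) and btbd17 (0.65) to zp4, and LOC100491589 and larp6 to both zpd (0.11 and 0.25) and zp3.2 (0.27 and 0.32). For zp2 they were acrc (0.09) and LOC100036702 (0.11), for zpy1 LOC101733112 (0.32) and btg4 (0.33), and for zpax bzrap1 (0.85) and LOC100036665 (0.85).

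The 6 genes lie on 6 different sequences of the deposited table. Of the 12 genes nearest on either side, 3 were higher in males, 3 did not pass and 6 were below the read filter, too few tested genes to set against the 19.6% and 17.1% of all tested genes called higher in females and in males. The closest was adgrg1, on the other strand with its nearest site 0.864 kb from zpd. It had 4 and 8 reads in females 1 and 2 and 29 in each male (log2 3.13, adjusted p = 0.0306). Beside zp4, sqstm1 at 17.0 kb had a log2 fold of 3.03 (adjusted p = 0.0213) and anxa6 at 83.3 kb one of 4.49 (adjusted p = 0.00784). With 4 reads of adgrg1 in female 1 and 6 of anxa6 in female 2, neither gene could pass the read filter through the females alone. The directions of adgrg1 and anxa6 thus had little room to reverse.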

How the data were processed

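Per the labels' protocols, total RNA was taken up in Trizol, fragmented, enriched for poly(A), reverse transcribed, size-selected and amplified by PCR. The submitters' processing notes list Bowtie2 2.2.3. Build, site grouping and filters: not given in the sources used here. Within the deposited table there is, for each site, the authors' unnormalized count in every library. It also holds p-values from the authors' comparison of females with males, unadjusted and adjusted in 2 ways (FDR, Bonferroni), and the authors' signed fold, treated as a score. A line of column totals was left out. Site classes were read as Cuffcompare codes, which the file does not name.

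Gene sums left out 2709 sites on the strand opposite to their gene. Sums and sites were tested over the whole table with edgeR 4.0.16 in R 4.3.3 (TMM, filterByExpr with minimum count 10 and total 15, glmQLFit, glmQLFTest on sex, Benjamini-Hochberg, threshold 0.05), after a test on simulated data. DESeq2 1.42.0, other scalings and filters and leaving out each library were alternatives. Where males had 0 reads a fold is a bound against 3 reads over the summed male libraries, and with 1 to 3 reads it is a ratio with a 95% Clopper-Pearson interval (SciPy 1.17.1). Named genes are the 6, their 2 nearest genes each by level, every gene of 3 lists and the 3 of highest level in the other lists. Neighbouring genes, and further genes given by name, were chosen after their values were seen. The members and lists were chosen with earlier results of these data known.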

Additional observations from a re-analysis of the deposited data

Results flagged for a closer look

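The zp3.2 gene had a site on the strand opposite to it, at 131842854, 1 base from its main site, with 6 reads in female 1, 1 in female 2 and 0 in both males. These 7 reads stood out because the gene sums leave them out and the number lies above the 3 reads that a count of 0 allows, while the males had none. The males also had no zp3.2 reads on the gene's own strand, so their 0 carries no information. Beside the 792 female reads on the gene's strand the 7 are few, where 3.84% and 2.87% of all reads of females 1 and 2 lay on the strand opposite to the gene. The authors' deposited table gives this site an FDR-adjusted p of 0.555. Its cause was not tested.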

How the results depend on the processing

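Under 13 alternatives the 6 genes kept their direction and call in all 78 values, and under 11 the 9 tested sites did so in 98 of 99. With at most 2 male reads for each gene, a direction had little room to reverse. Leaving out intronic sites removed none of their reads, and counting all sites added only the 7 opposite-strand reads of zp3.2. The muscle and liver scaling moves every gene towards females, so these 3 alternatives say little. The third zp2 site had a log2 fold of -8.70 to -7.11 without 1 library and lost its call without female 2, so that 8 to 9 sites were called. Scaled to muscle and liver genes, 7888 genes and 11943 sites were called in place of 3735 and 6216. With at least 1 CPM in 2 libraries 13496 sites were, of 38535 tested in place of 17215. Without 1 library the counts were 1280 to 4371 genes and 2395 to 5777 sites, where a lone frog of a sex is assumed to vary like the other sex. Of called genes 46.6% were higher in males, 24.1% with library size alone and 0.761% with muscle and liver scaling, with medians over all tested genes of -1.25 and -4.14 (log2) in place of -0.35. For sites the shares were 44.8%, 28.4% and 2.64%, with 33.9% at 1 CPM and 34.3% with no filter. With the replicate number as a block, 4637 genes and 7469 sites were called, and no call of the egg coat genes or their tested sites changed. The labels give no pairing, and same-numbered libraries deviated together at r = 0.31 over 10188 genes. With the most used site only, the shares of egg coat reads moved to 9.36% for zpd, 12.2% for zp3.2 and 3.41% for zp2, whose other sites are then left out, and the intervals of the females then overlap for zp2 and part for zpd. Depth limits the males, where 0 reads allow up to 1.83 CPM in male 1 and 2.85 in male 2, and ratios resting on 2 male reads have wide intervals.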
